A study of Mus musculus with 2 samples.

Results

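Steroid receptors do not act alone: they mature on Hsp90 with the help of cochaperones, and once bound to DNA they switch genes through coactivators and corepressors. The 9 genes described here stand at both steps. They are the p160 coactivators Ncoa1, Ncoa2 and Ncoa3, the coactivators Ncoa6 and Med1, the corepressors Ncor1 and Nrip1, and the FK506-binding cochaperones Fkbp4 and Fkbp5, chosen by symbol out of 55363 genes in the deposited tables. All 9 were found, each in a single row, and all 9 reached 1 FPKM, the level used to count a gene.

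RNA was sequenced from the whole uterus, a mixed tissue by its label, of pregnant mice aged 6 to 8 weeks on gestational day 4, with day 1 being the day of the plug. There were 2 libraries, 1 from a Mettl14 f/f and 1 from a Mettl14 d/d uterus. By the usual notation these are the floxed control and the deleted genotype, and Mettl14 encodes a subunit of the enzyme that places N6-methyladenosine on RNA. The labels name no Cre driver, and whether a library came from 1 animal or several is not given in the sources used here. The f/f library is called the control below. Because each genotype has 1 library, the variation between animals is unknown, no value carries a replicate error or a test, and "higher" and "lower" compare these libraries.

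In the uterus, progesterone and estrogen act in turn to make the tissue ready for the embryo. Fkbp4 encodes FKBP52, a cochaperone that raises the activity of the progesterone receptor and is needed for implantation in mice. Fkbp5 encodes FKBP51, a related protein that dampens glucocorticoid and progesterone receptors and is itself a gene those receptors switch on. Nrip1 encodes RIP140, a repressor recruited by hormone-bound receptors, and is known as an estrogen-induced gene. Ncoa2 and Ncoa6 are both known from uterine deletion in mice, Ncoa2 for decidualization and Ncoa6 for restraint of estrogen response.

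Mettl14 was 13.6 FPKM in the control and 3.21 FPKM in d/d, 4.25-fold lower in the library labelled d/d. FPKM are fragments per kilobase of transcript, relative to how many fragments of that library mapped, so levels of different genes can be set side by side. Depth, estimated from the steps between low values, was about 17750000 fragments in the control and 20700000 in d/d. Of 9 epithelial, 9 stromal and 7 smooth muscle markers, all were above 0 in both libraries. The embryo markers Pou5f1 and Cdx2 were listed at 0 in both, and Nanog at 0 in the control and 0.0253 FPKM in d/d.

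Among the 9 genes, Nrip1 was at least 2-fold higher in d/d, Fkbp5 was at least 2-fold lower, and the other 7 were neither. Ratios were taken as log2 of d/d to control after adding 1 to each FPKM. Over all 16263 genes counted, 10.2% were at least 2-fold higher, 8.28% were at least 2-fold lower, and 18.4% were past 2-fold in either direction. The 2 of 9 found here is therefore close to the share over all genes, and the set as a group did not stand out by its count. The median log2 ratio of the 9 was 0.24, against -0.01 over all genes counted, whose quartiles were -0.41 and 0.41. Of the 9 ratios, 7 were above 0.

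**Figure D1:**
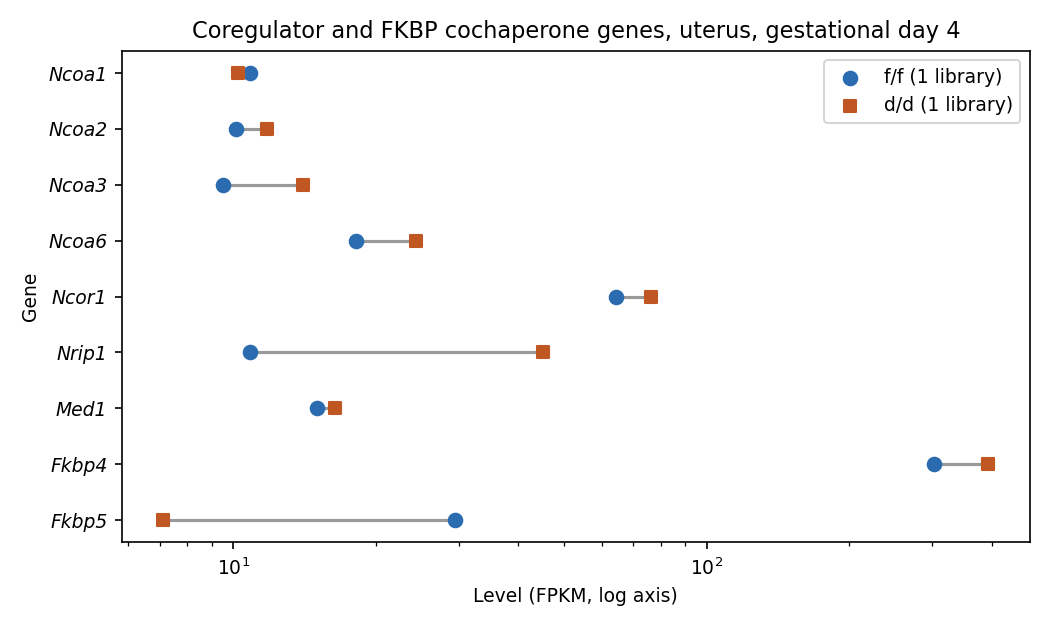
Level of each of the 9 genes in FPKM on a log axis, with the control (f/f) as a circle and d/d as a square, 1 library each and no error bars. Nrip1 goes from 10.9 to 45.1 FPKM and Fkbp5 from 29.4 to 7.11 FPKM, whereas the markers of the other 7 genes lie close together.

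The p160 coactivators were present at similar levels and stayed within 2-fold between the libraries. These proteins bind the hormone-bound receptor and bring in histone acetyltransferases. Ncoa1 (SRC-1, chr12:4247362-4477182, GRCm38) was 10.8 FPKM in the control and 10.2 in d/d, a log2 ratio of -0.07. Ncoa2 (SRC-2, chr1:13139105-13374083) was 10.1 FPKM in the control and 11.8 in d/d, a log2 ratio of 0.20. Ncoa3 (SRC-3, chr2:165992636-166073242) was 9.50 FPKM in the control and 14.0 in d/d, a log2 ratio of 0.52. None was past 2-fold, and Ncoa3 had the largest ratio of the 3.

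Summed, the p160 genes gave 30.4 FPKM in the control and 36.0 FPKM in d/d. In the control the sum was divided almost evenly, with Ncoa1 at 35.6%, Ncoa2 at 33.2% and Ncoa3 at 31.2%. In d/d the order was turned, with Ncoa3 at 39.0%, Ncoa2 at 32.7% and Ncoa1 at 28.4%. Without a spread between animals, none of these shares can be said to differ, and neither can the order. The last 154 bases of the annotated Ncoa3 gene overlap Sulf2 on the other strand, which was 54.0 FPKM in the control and 146 in d/d. The strand setting of the libraries is not given in the sources used here, so fragments from that overlap cannot be told apart.

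The remaining coactivators were also within 2-fold. Ncoa6 (chr2:155390656-155473894), which links receptors to a histone H3 lysine methyltransferase complex, was 18.2 FPKM in the control and 24.3 in d/d, a log2 ratio of 0.40. Med1 (chr11:98152154-98193293), the Mediator subunit that contacts nuclear receptors, was 15.0 FPKM in the control and 16.4 in d/d, a log2 ratio of 0.12. Only Ncoa1 had a ratio smaller in size than Med1 among the 9. The share of all genes counted with a ratio no larger in size was 16.2% for Med1 and 10.4% for Ncoa1.

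The corepressors differed from each other. Ncor1 (chr11:62316426-62458541), the scaffold that holds the histone deacetylase Hdac3 on receptors, was 64.4 FPKM in the control and 76.2 in d/d, a log2 ratio of 0.24. Among the 9 it was the most abundant coregulator in both libraries and came second to Fkbp4. The Ncor1 level was 5.95 times that of Ncoa1 in the control and 7.45 times in d/d. The annotated span of Ncor1, introns included, overlaps Ttc19 by 12026 bases and Pigl by 82 bases, both on the other strand. Ttc19 was 11.9 FPKM in the control and 14.3 in d/d, and Pigl was 3.06 and 3.45. As the strand setting is not given, fragments from these overlaps cannot be told apart.

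Nrip1 (ENSMUSG00000048490, minus strand, chr16:76287400-76373827) was 10.9 FPKM in the control and 45.1 FPKM in d/d. That is 4.16-fold higher in d/d and a log2 ratio of 1.96, the largest of the 9. Of the 16263 genes counted, 500 (3.07%) had a ratio at least as high. At the estimated depth its longest coding transcript would stand for about 1516 fragments in the control and 7350 in d/d. Counting error alone then gives the log2 ratio a 95% half-width of 0.080, which leaves out the variation between animals. No annotated gene overlaps Nrip1 on either strand.

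In the control, Nrip1 stood level with Ncoa1, at 1.00 times its FPKM, and in d/d it was 4.41 times Ncoa1. Against Ncor1 the gap narrowed from 5.93-fold in the control to 1.69-fold in d/d. Nrip1 thus went from the sixth to the third place among the 9 levels. Relative to its receptor partner Esr1, the level of Nrip1 was 0.206 in the control and 0.474 in d/d.

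The cochaperones stood far apart, both in level and in ratio. Fkbp4 (chr6:128429735-128438677) was 303 FPKM in the control and 394 FPKM in d/d, a log2 ratio of 0.38. It was the highest of the 9 in both libraries, and 2.71% of the genes counted were at least as high in the control and 2.25% in d/d. The level of Fkbp4 relative to the progesterone receptor gene Pgr was 6.94 in the control and 6.86 in d/d, nearly the same in both.

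Fkbp5 (ENSMUSG00000024222, minus strand, chr17:28399094-28517527) was 29.4 FPKM in the control and 7.11 FPKM in d/d. That is 4.13-fold lower in d/d and a log2 ratio of -1.90. Of the 16263 genes counted, 346 (2.13%) had a ratio at least as low. The estimated fragments were about 2010 in the control and 568 in d/d, so counting error alone gives a 95% half-width of 0.13. From the third place among the 9 in the control, Fkbp5 went to the last in d/d. The 4 genes annotated inside Fkbp5 were each listed at 0 in the control, and 1 was above 0 in d/d, at 0.0228 FPKM.

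There were 10.3 Fkbp4 per Fkbp5 in FPKM in the control and 55.4 in d/d. Written the other way, Fkbp5 over Fkbp4 was 0.0969 in the control and 0.0180 in d/d, a factor of 5.37 between the libraries. This ratio is taken within a library and so does not depend on how the libraries were scaled to each other. Fkbp5 over Pgr was 0.672 in the control and 0.124 in d/d.

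**Figure D2:**
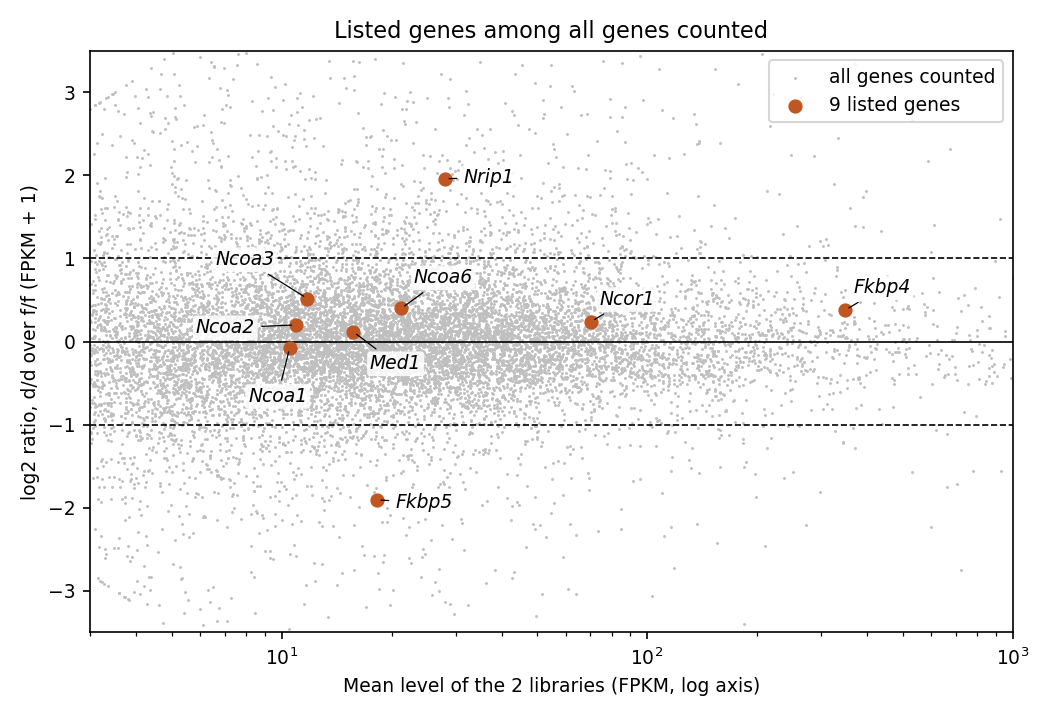
Mean FPKM of both libraries on a log axis against the log2 ratio of d/d to control, with the 9 genes as large labelled points and all genes counted as small points. Dashed lines mark 2-fold, and the plot shows 13010 of the 16263 genes, those with a mean of 3 to 1000 FPKM and a log2 ratio within 3.5 of 0. Nrip1 at 1.96 and Fkbp5 at -1.90 lie outside the dashed lines and the other 7 inside.

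A mean of 5 to 50 FPKM held 7 of the 9 genes, with Ncor1 and Fkbp4 above it. Among the 9203 genes in that window 9.11% were at least 2-fold higher and 6.83% were at least 2-fold lower in d/d. A call like that of Nrip1 was thus made for 838 genes at these levels, and a call like that of Fkbp5 for 629.

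The sequences before the start sites of Nrip1 and Fkbp5 are shown because these are the genes past 2-fold. RefSeq windows on GRCm38.p6 were matched for 7 of the 9 genes, not for Ncoa2 and Ncoa3, and the 250 bases before each start were searched on both strands. The motifs were GGTCA, a single arm of the estrogen response element, TGTTCT, a single arm of the element shared by progesterone and glucocorticoid receptors, and GGGCGG, the core of an Sp1 site. They are in capitals, on whichever strand they occur. Nrip1 has 2 windows, at chr16:76373828-76374077 and chr16:76373050-76373299, and Fkbp5 has 1, at chr17:28486150-28486399, all on the minus strand. The GENCODE model of Fkbp5 reaches further upstream than this RefSeq start.
Nrip1 upstream start: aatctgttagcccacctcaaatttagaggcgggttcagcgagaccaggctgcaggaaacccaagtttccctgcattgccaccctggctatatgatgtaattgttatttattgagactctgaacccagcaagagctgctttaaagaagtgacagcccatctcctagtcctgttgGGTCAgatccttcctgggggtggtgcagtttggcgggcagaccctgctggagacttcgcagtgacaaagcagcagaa
Nrip1 downstream start: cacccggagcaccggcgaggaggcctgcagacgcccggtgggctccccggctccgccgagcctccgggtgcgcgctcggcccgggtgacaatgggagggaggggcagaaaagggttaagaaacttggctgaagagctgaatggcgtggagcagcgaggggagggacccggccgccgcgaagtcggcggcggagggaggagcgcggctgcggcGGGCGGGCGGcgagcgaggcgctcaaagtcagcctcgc
Fkbp5: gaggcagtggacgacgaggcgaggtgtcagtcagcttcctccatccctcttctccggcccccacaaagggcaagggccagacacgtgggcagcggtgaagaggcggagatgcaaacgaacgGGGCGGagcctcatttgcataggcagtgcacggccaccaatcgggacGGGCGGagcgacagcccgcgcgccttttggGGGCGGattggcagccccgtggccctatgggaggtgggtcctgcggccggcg

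The Nrip1 upstream window holds 1 GGTCA and no GGGCGG, and the downstream window holds 2 overlapping GGGCGG and no GGTCA. The Fkbp5 window holds 3 GGGCGG and neither of the receptor motifs. Sequence outside the windows, introns included, was not searched, so a gene may hold these motifs elsewhere. Among 32851 windows of the same length, 35.2% hold GGTCA, 16.1% hold TGTTCT and 32.7% hold GGGCGG, so each match is common. The full elements GGTCANNNTGACC and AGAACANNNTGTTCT were in none of the 9 windows of the set, and are in 0.0639% and 0.00913% of all windows. These windows differ in base composition as well. The downstream Nrip1 window is 73.6% G or C with 32 CpG, the Fkbp5 window is 68.0% with 23 CpG and the upstream Nrip1 window is 51.2% with 4 CpG, against medians of 52.4% and 6 over all windows.

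Receptors that these proteins serve were within 2-fold. Pgr was 43.7 FPKM in the control and 57.4 in d/d, a log2 ratio of 0.39, close to that of Fkbp4. The estrogen receptor gene Esr1 was 52.8 FPKM in the control and 95.2 in d/d, a log2 ratio of 0.84, larger than that of Pgr. The glucocorticoid receptor gene Nr3c1 was 20.2 FPKM in the control and 22.0 in d/d, a log2 ratio of 0.12. Esr2 and Nr3c2 stayed under 1 FPKM in both libraries.

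Partners of the p160 proteins were mostly within 2-fold, 15 of 17, with a median log2 ratio of 0.10 and 2 higher, beside 10.2% of all genes. Only 1 was higher with a pseudocount of 5 or a filter of 5 FPKM. The acetyltransferases Crebbp, at 8.02 FPKM in the control and 8.78 in d/d, and Ep300, at 13.1 and 14.2, were within 2-fold (both chosen after their values were seen). The higher genes were Ncoa7, an estrogen receptor coactivator, at 26.4 and 92.4 FPKM (log2 ratio 1.77), and Ppargc1a, a coactivator of energy metabolism, at 0.525 and 2.96 FPKM (1.38, and 0.53 with a pseudocount of 5). Ncoa7 overlaps Hint3 by 634 bases on the same strand, and Hint3 was 20.7 FPKM in the control and 15.3 in d/d. In the methyltransferase complex joined by Ncoa6, 8 of 9 genes were within 2-fold, beside 18.4% of all genes past it, with a median of -0.22. The exception was the adaptor Pagr1a, at 5.16 and 1.27 FPKM (-1.44, and -0.70 with a pseudocount of 5). It overlaps the gene models Pagr1b and Gm42742 on the same strand, so its own level is uncertain.

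Corepressor partners had 16 of 17 genes within 2-fold, beside 18.4% of all genes past it, and a median of -0.09. Lcor, a ligand-dependent corepressor that works with CtBP proteins, was higher at 3.65 FPKM in the control and 9.15 in d/d (log2 ratio 1.13, and 0.71 with a pseudocount of 5). The CtBP genes, whose products Nrip1 recruits, were within 2-fold, Ctbp1 at 190 and 189 FPKM and Ctbp2 at 69.5 and 88.7. Hdac3, the deacetylase of the Ncor1 complex, was 40.0 FPKM in the control and 60.2 in d/d, a log2 ratio of 0.58 (Ctbp1, Ctbp2 and Hdac3 chosen after their values were seen). Of 31 other Mediator genes, 30 were within 2-fold, beside the same 18.4% of all genes past it, with a median of 0.03. Med7 alone was past it, at 27.4 and 60.8 FPKM (1.12).

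None of the 23 genes of the Hsp90 receptor machinery was past 2-fold, beside 18.4% of all genes, and their median log2 ratio was -0.23. The highest were Hsp90ab1, the constitutive Hsp90, at 1225 FPKM in the control and 1138 in d/d, and the Hsc70 gene Hspa8, at 318 and 375 FPKM. The p23 gene Ptges3, which locks Hsp90 on the receptor, was 107 and 85.9 FPKM, and the Hop gene Stip1 was 172 and 130 FPKM (both chosen after their values were seen). Their log2 ratios ran from -0.76, for Ttc4, to 0.73, for Hsph1, and that of Fkbp5 lay below this range (Ttc4 and Hsph1 chosen after their values were seen).

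The other FKBP genes leaned lower. With 1 added to each FPKM and no rescaling, none passed 2-fold in that direction, beside 8.28% of all genes. Of 13, 12 were counted, 8 had ratios below 0 and the median was -0.43. Fkbp1a, the FKBP12 gene, was 587 FPKM in the control and 294 in d/d, and Fkbp3 was 136 and 67.5. On the values as deposited Fkbp3 was 2.01-fold lower. With 1 added, the log2 ratios of Fkbp1a and Fkbp3 were -0.996 and -0.998, just short of the 2-fold rule (chosen after their values were seen). With the libraries scaled by their median ratio or upper quartile, 2 of the 12 were past it. Fkbpl, a divergent FKBP bound to Hsp90, was higher at 6.84 and 15.7 FPKM (1.09, and 0.81 with a pseudocount of 5). The ratio of Fkbp5, at -1.90, was lower than that of each of these 12 genes.

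**Figure D3:**
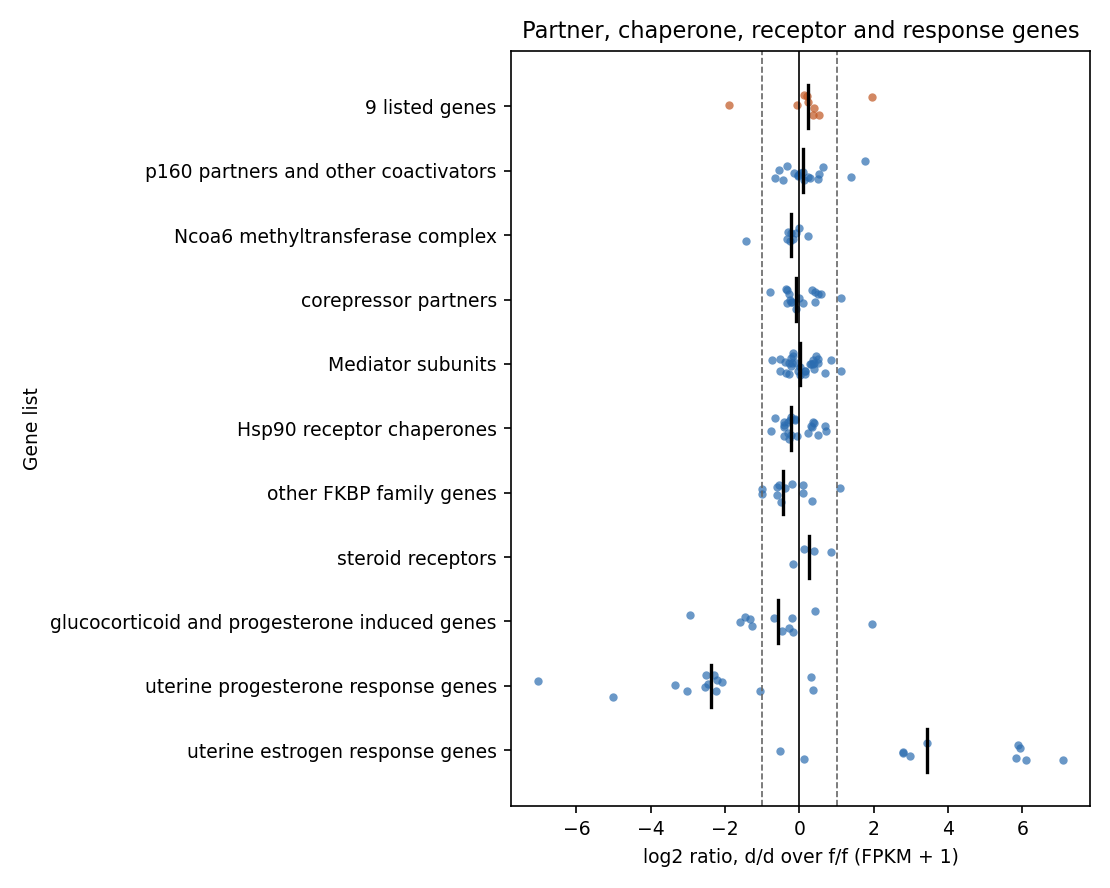
Log2 ratio of d/d to control for each counted gene of the 9-gene set and of each partner or response list, 1 point per gene, with a black bar at the median and dashed lines at 2-fold. Partner, Mediator and chaperone genes cluster around 0, and the progesterone and estrogen response lists have medians of -2.37 and 3.43.

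Fkbp5 belongs with genes that glucocorticoid and progesterone receptors induce, and 5 of 12 others of that kind were at least 2-fold lower in d/d, 1 was higher and 6 were neither, beside 8.28% of all genes lower. Their median log2 ratio was -0.57. The transcription factor gene Zbtb16 was 12.3 FPKM in the control and 0.717 in d/d (log2 ratio -2.95), the clock gene Per1 was 16.9 and 4.90 (-1.60), and the Kruppel-like factor gene Klf9 was 37.7 and 12.9 (-1.48). Tsc22d3, which encodes GILZ, was 53.0 and 20.3 FPKM (-1.34), and the metallothionein gene Mt2 was 525 and 215 (-1.28). The higher gene was Ddit4, an inhibitor of mTOR signalling, at 37.1 and 146 FPKM (1.95). Not every gene of the list was lower, as Sgk1 was 31.9 and 28.4 FPKM and Nfkbia was 68.4 and 92.7 (Tsc22d3, Mt2, Sgk1 and Nfkbia chosen after their values were seen).

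Of the uterine hormone response lists, the progesterone list was mostly lower in d/d and the estrogen list mostly higher. Both were chosen with earlier results of these data known, so their directions are not independent evidence. The part of hormone response in the values of Nrip1 and Fkbp5 was not tested. Of 14 progesterone response genes, 12 were at least 2-fold lower, beside 8.28% of all genes, and none was higher. Their median was -2.37, and Hoxa10, Hoxa11 and Hand2 among them are also markers of stroma. Cyp26a1, Fst and Ihh had log2 ratios of -7.04, -5.03 and -3.36, and Calca was listed at 0 in d/d. Prdx6, an antioxidant gene linked to Fkbp4, was not lower, at 181 FPKM in the control and 235 in d/d (chosen after its values were seen). Of 11 estrogen response genes, 9 were at least 2-fold higher, beside 10.2% of all genes, and none was lower, with a median of 3.43. Ltf, Padi1, Lcn2 and the epithelial marker Krt19 had log2 ratios of 7.10, 6.09, 5.93 and 5.89, and Greb1, an estrogen receptor cofactor, was 4.77 FPKM in the control and 39.1 in d/d (chosen after its values were seen). The difference in Nrip1, at 1.96, was smaller than in any of those 5.

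Cell type markers differed between the libraries as well, and in whole tissue fewer cells of a type cannot be told apart from less RNA per cell. The counts below stand beside 10.2% of all genes at least 2-fold higher and 8.28% at least 2-fold lower. The 9 epithelial markers summed to 371 FPKM in the control and 2170 in d/d, with 8 of 9 at least 2-fold higher. The 9 stromal markers summed to 4677 FPKM and 2963, with 5 of 9 lower, among them Hoxa10, Hoxa11 and Hand2 of the progesterone list. The other 4 encode collagens and proteoglycans and were near 0, with Col1a1 at a log2 ratio of -0.29, Dcn at -0.17, Lum at -0.16 and Col1a2 at -0.13. The 6 endothelial markers summed to 320 and 146 FPKM, with 4 of 6 lower. The 7 smooth muscle markers summed to 4911 and 3206 FPKM, with 2 of 7 lower. The 6 gland markers summed to 2269 and 25.4 FPKM. The 4 lower ones encode secreted products, and Prss28 and Spink1 of these were listed at 0 in d/d. The gland transcription factor genes were within 2-fold, with Foxa2 at 5.11 FPKM in the control and 3.56 in d/d and Sox9 at 8.19 and 11.0. The 7 leukocyte markers summed to 471 and 1202 FPKM, with 5 of 7 higher, and Lyz2 alone was 334 and 886, whereas the general leukocyte marker Ptprc was 29.1 and 22.7. The 6 fat cell markers summed to 11.7 and 123 FPKM, with 4 of the 5 counted higher and Plin1 and Cidec listed at 0 in the control. Ovary, oviduct and embryo markers summed to 19.3 and 2.82 FPKM, and of the 4 counted, Star, Cyp11a1 and Ovgp1 were lower, Cyp11a1 being listed at 0 in d/d, and Foxj1 was higher, at 0.130 and 1.46 FPKM.

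The ratio of Nrip1, 1.96, lay above the median of the leukocyte markers, 1.35, and below those of the fat cell markers, 2.51, and the epithelial markers, 2.78. The ratio of Fkbp5, -1.90, lay below the stromal median of -1.72, which is the value of Vim in a list that splits between lower genes and collagen and proteoglycan genes near 0. Fkbp5 also lay above the gland median, -6.71, and below those of ovary, oviduct and embryo (-1.52), endothelium (-1.12) and smooth muscle (-0.81). The other 7 genes lay between -0.07 and 0.52. The part of cell makeup in the values of Nrip1 and Fkbp5 was not tested.

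**Figure D4:**
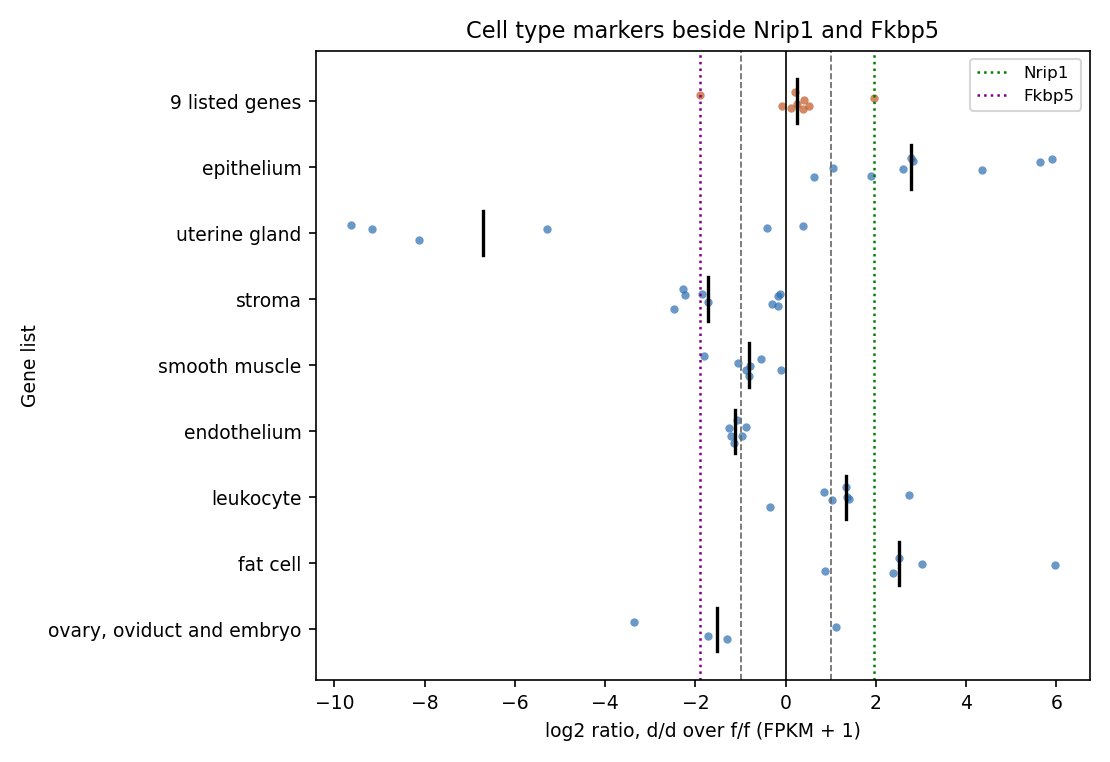
Log2 ratio of d/d to control for each counted cell type marker, 1 point per gene, with a black bar at each list's median and dashed lines at 2-fold. Dotted lines mark Nrip1 at 1.96, between the leukocyte median and those of fat cells and epithelium, and Fkbp5 at -1.90, between the gland median and that of stroma.

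The 7 coregulator transcripts are long. In the longest coding transcript of each, they run from 7101 bases in Ncoa6 to 9037 in Ncor1, against a median of 3076 bases over 13754 counted coding genes. Only 3.24% of those genes are as long as Ncor1 and 7.97% as long as Ncoa6. Fkbp5 has 3858 bases and Fkbp4 has 2217. With the trend of the log2 ratio on transcript length taken off, Nrip1 was at 1.94 and Fkbp5 at -1.88.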

How the data were processed

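Reads were handled with HISAT2 2.2.1 and Cufflinks 2.2.1 on mm10, per the submitters' processing notes. The deposited values are FPKM per gene made by the authors, and the annotation release is not given in the sources used here. Each of the 2 tables holds 55483 rows, and 120 extra rows of shared symbols were summed, which left 55363 genes. Log2 ratios, d/d against f/f, used FPKM + 1 and covered the 16263 genes at 1 FPKM or more in either library, and a gene was called at 2-fold. Adding 1 understates the ratios of low genes.

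Positions and transcript lengths came from GENCODE M21 (GRCm38, the same assembly as mm10), which held 55137 of the gene IDs, and promoter windows from RefSeq GRCm38.p6. Depth was taken as the value that put most low values, 77.1% of 720 in f/f and 76.2% of 731 in d/d, within 0.1 of a whole fragment, over genes with 1 transcript of at least 2000 bases. It is approximate and entered no ratio. The code was tested on simulated data (Python 3.11.15, pandas 2.3.3, statsmodels 0.14.6).

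The 9 genes and the partner, response and marker lists were chosen with earlier results of these data known. Named were the 9 genes, Mettl14, steroid receptors and, from each list, up to 4 genes past 2-fold with the largest ratios or, with none, the 2 most abundant; exceptions are marked, except that marker genes, also Hoxa10, Hoxa11 and Hand2, and genes named as listed at 0 or under 1 FPKM were chosen after their values were seen, and a gene within the rule is not reported here. Other pseudocounts, scalings, filters and corrections for GC content and length were tried.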

Additional observations from a re-analysis of the deposited data

How the results depend on the processing

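Under the 10 other settings computed for each gene (pseudocounts of 0.1 and 5, 3 scalings, corrections for GC content and transcript length, no filter, a filter of 5 FPKM, and the highest row in place of the sum), Nrip1 stayed at least 2-fold higher, from 1.66 to 2.05, and Fkbp5 at least 2-fold lower, from -2.03 to -1.50. The other 7 genes passed 2-fold under none of these settings, and each kept its sign. No filter, the filter of 5 FPKM and the highest row could not change the ratio of any of the 9, each being in a single row. With a 1.5-fold rule Nrip1 and Fkbp5 were again the only ones of the 9 called. The median log2 ratio of the 9 ran from 0.16, with the upper quartile scaling, to 0.26, with the GC correction. Adding 1 to each level moved Fkbp5 over Fkbp4 in d/d from 0.0180 to 0.0205. With a pseudocount of 5, 869 genes were higher and 539 lower in place of 1652 and 1346, and Ppargc1a (0.53), Pagr1a (-0.70), Lcor (0.71) and Fkbpl (0.81) were no longer past 2-fold. Of 360 counts for the partner, response and marker lists under the 10 settings, 346 stayed within 1.5 times, and the others were counts of at most 4 genes. Among them, the FKBP family had 1 lower gene with a pseudocount of 0.1 and 2 under the median ratio or upper quartile scaling, in place of 0. The 346 include counts that were 0 and stayed 0, and dropping the filter could not add a call. A 1.5-fold rule called 3063 genes higher and 2888 lower, and under it the FKBP family had 4 lower in place of 0, the Hsp90 chaperones 2 higher and 2 lower in place of 0, Mediator 3 higher in place of 1 and 1 lower in place of 0, the steroid receptors 1 higher in place of 0, the p160 and corepressor partners 1 lower each in place of 0, and smooth muscle 5 lower in place of 2. No paired analysis was possible because there was 1 library per genotype. Fkbp5 in d/d was the least covered of the 9, at about 568 fragments, and the single library per genotype leaves the variation between animals unknown.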

Other observations

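The pentamer GGACT, the commonest form of the sequence in which N6-methyladenosine is placed, was counted on the sense strand of the longest coding transcript of each gene. Methylation itself was not measured here, so a count says only how often these letters occur. Nrip1 had 12, or 1.53 per kilobase, and 74.7% of 13754 counted coding genes had no more per kilobase. Fkbp5 had 3, or 0.778 per kilobase, with 32.9% of genes at or below it. Ncoa1 had 9, Ncor1 and Med1 had 8 each, Ncoa3 had 7, Ncoa2 and Ncoa6 had 6 each and Fkbp4 had 1. The median over all counted coding genes was 3 per transcript and 1.05 per kilobase, so by density Nrip1 and Ncoa1 lay above the median and the other 7 below it.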
